A study of Homo sapiens with 2 samples.

Results

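The genes described here encode the histone methyltransferases, demethylases, acetyltransferases and deacetylases, the bromodomain, ARID and Polycomb proteins that work with them, and the ATP-driven chromatin remodellers. They were taken by symbol from the protein-coding RefSeq genes of GRCh38: symbols starting KDM, KMT, SETD, NSD, HDAC, SMARC, ARID or BRD, symbols starting KAT or CHD followed by a digit, and SETMAR, ASH1L, EZH1, EZH2, EED, SUZ12 and PSIP1. This gave 114 of 20037 genes. Of these, 3 (NSDHL, BRD3OS and CHD9NB) share only the letters of a prefix, and SETDB2-PHF11 is a readthrough gene that starts where SETDB2 starts, so 110 distinct loci of the named families remain. The values are broad ATAC-seq peaks, regions where a transposase cut DNA more often than in the surroundings, from 2 libraries of C4-2 cells, a prostate cancer line descended from LNCaP that grows without androgen. The control library is labelled CTR. The series names a control shRNA (shCTR) as its reference, while the deposited peak list is named as wild type for NSD2, so the labels leave some doubt about whether these cells were given an shRNA. The knockdown library is from cells given an shRNA to WHSC1, also named NSD2 (shWHSC1). Both were cultured in RPMI with serum. The labels do not say which shRNA sequence was used, for how long, or whether the cells were a clone. With 1 library per group there is no replicate spread to measure a difference by, no test was made, and each comparison is between these 2 libraries.

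Histone tails carry acetyl and methyl groups that writers add, erasers remove and readers bind. Acetylation by the KAT enzymes loosens chromatin and HDAC enzymes reverse it, while methylation acts by position: on histone H3, lysine 4 marks promoters and enhancers, lysine 36 transcribed genes, and lysines 9 and 27 silenced ones. Remodellers of the SWI/SNF, ISWI and CHD families use ATP to slide, space or evict nucleosomes. NSD2, the targeted enzyme, dimethylates lysine 36 of histone H3, and several other members act on the same residue or read its methylation. What follows describes the accessibility called at the genes for these proteins, not the activity of the proteins.

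A peak was counted at a gene if it lay within 3 kb of either end or inside the gene, in the unit the authors' peak caller gives, fold enrichment over the local background of the same library, with a −log10 q as its strength. Peaks were called at 28 of the 114 members in at least 1 library, 24.6% (95% exact Clopper-Pearson interval 17 to 33.5%, counting error only), beside 12.0% of all protein-coding genes. The control list placed a peak at 19 members (16.7%, interval 10.3 to 24.8%), beside 7.64% of all genes. The knockdown list placed one at 21 (18.4%, interval 11.8 to 26.8%), beside 9.26%. Both lists held a peak at 12 members (10.5%, beside 4.95% of all genes), the control list alone at 7 (6.14%, beside 2.69%) and the knockdown list alone at 9 (7.89%, beside 4.32%). A gene without a peak had no region past the authors' threshold, which does not measure closed chromatin. Since SETDB2-PHF11 holds the same peaks as SETDB2, the 28 members stand for 27 loci, 11 with a peak in both libraries.

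Promoter stretches of 6 of these loci show what lay under the peaks (the files give coordinates, and RefSeq for GRCh38.p14 gives the bases). Each stretch is the longest run of the 250 bases before the gene's RefSeq start that was under a peak of either library and outside every annotated gene, written 5′ to 3′ along the gene. Capitals mark matches to any of 9 short motifs searched on both strands. The first 3 were at loci with a peak in both libraries: ARID4A at chr14:58298305-58298473 on the plus strand, SETDB2 at chr13:49444065-49444273 on the plus strand and SMARCA2 at chr9:2015097-2015346 on the plus strand. The control peak covered all 3 whole. The knockdown peak covered all 209 bases of SETDB2, 135 of the 169 bases of ARID4A, where it ended before the last CCAAT, and 214 of the 250 bases of SMARCA2, where it began after the CCGCCC. EED at chr11:86244530-86244741 on the plus strand and PSIP1 at chr9:15510971-15511097 on the minus strand were under a peak of the control only. SETD7 at chr4:139556220-139556469 on the minus strand was under a peak of the knockdown only.
ARID4A: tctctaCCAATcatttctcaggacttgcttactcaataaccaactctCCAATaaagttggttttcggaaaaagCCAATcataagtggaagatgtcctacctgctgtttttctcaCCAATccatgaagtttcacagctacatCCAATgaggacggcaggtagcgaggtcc
SETDB2: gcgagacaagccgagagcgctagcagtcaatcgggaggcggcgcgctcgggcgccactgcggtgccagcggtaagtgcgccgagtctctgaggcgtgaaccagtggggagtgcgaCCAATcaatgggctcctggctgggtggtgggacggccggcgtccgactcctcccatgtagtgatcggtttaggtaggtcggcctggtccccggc
SMARCA2: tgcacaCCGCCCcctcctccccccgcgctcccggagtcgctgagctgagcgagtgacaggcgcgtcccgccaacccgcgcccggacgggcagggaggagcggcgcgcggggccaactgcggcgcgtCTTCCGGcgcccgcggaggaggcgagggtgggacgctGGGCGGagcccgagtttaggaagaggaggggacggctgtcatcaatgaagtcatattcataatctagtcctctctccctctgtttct
EED: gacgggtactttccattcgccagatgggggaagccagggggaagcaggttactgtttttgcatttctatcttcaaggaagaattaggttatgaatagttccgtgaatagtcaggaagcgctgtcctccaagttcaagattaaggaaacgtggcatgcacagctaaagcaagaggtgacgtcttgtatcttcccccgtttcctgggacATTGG
PSIP1: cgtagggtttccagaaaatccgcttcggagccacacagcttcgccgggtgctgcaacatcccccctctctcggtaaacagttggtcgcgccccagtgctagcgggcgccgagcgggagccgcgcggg
SETD7: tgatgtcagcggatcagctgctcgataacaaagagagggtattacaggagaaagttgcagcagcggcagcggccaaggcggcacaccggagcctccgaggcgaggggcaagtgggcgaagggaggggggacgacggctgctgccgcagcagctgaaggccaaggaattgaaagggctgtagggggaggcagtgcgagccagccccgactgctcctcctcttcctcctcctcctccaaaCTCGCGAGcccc
The capitals are CCAAT boxes (CCAAT or ATTGG) in ARID4A, SETDB2 and EED, GC boxes (GGGCGG or CCGCCC) and the ETS letters CTTCCGG in SMARCA2, and the ZBTB33 letters CTCGCGAG in SETD7. The PSIP1 stretch held none of the 9. The stretches differ in base composition: 43.2% of the bases were G or C in ARID4A and 47.6% in EED, against 67.5% in SETDB2, 68.8% in SMARCA2, 66.9% in PSIP1 and 64.0% in SETD7. SMARCA2 held 29 CpG dinucleotides and ARID4A 3.

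ARID4A held repeated CCAAT boxes, 5 within the stretch shown and 6 within the whole 250 bases. That number was reached by 17 of 15843 promoters of protein-coding genes (0.107%). It was compared for ARID4A alone, a single gene picked from many, so the percentage describes this promoter and is not a test. Over the 25 member loci with both a peak and a promoter in the RefSeq table, 9 (36%) had at least 1 CCAAT box, beside 34.5% of all promoters and 42% of those of all genes with a peak, and 23 of the 72 members without a peak (31.9%) had one. GC boxes were in 14 of the 25 (56.0%), beside 56.0% of all promoters, 65.4% of those of all genes with a peak and 63.9% of members without a peak. The ETS letters CCGGAAG or their reverse were in 4 of the 25 (KDM4C, KDM7A, SETD6 and SMARCA2), 16.0% beside 11.8% of all promoters and 15.5% of those of all genes with a peak. CTCGCGAG was in SETD7 and SMARCA5, and ACTACAA or TTGTAGT (ZNF143) in SETMAR and SMARCAL1, each 8% beside 1.32% and 2.88% of all promoters, and 1.84% and 3.32% of those of all genes with a peak. CACGTG, the E-box, was in KDM4C and SETD6, 8% beside 7.84% and 9.23%. The NRF1 letters CGCATGCG, the CRE TGACGTCA and the YY1 letters AAGATGGC or GCCATCTT were in none of the 25 windows, beside 2.49%, 2.32% and 1.39% of all promoters and 3.93%, 3.57% and 1.58% of those of all genes with a peak. These are matches of letters, not sites shown to be bound, and the searched motifs do not overlap one another in the stretches shown.

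**Figure D1:**
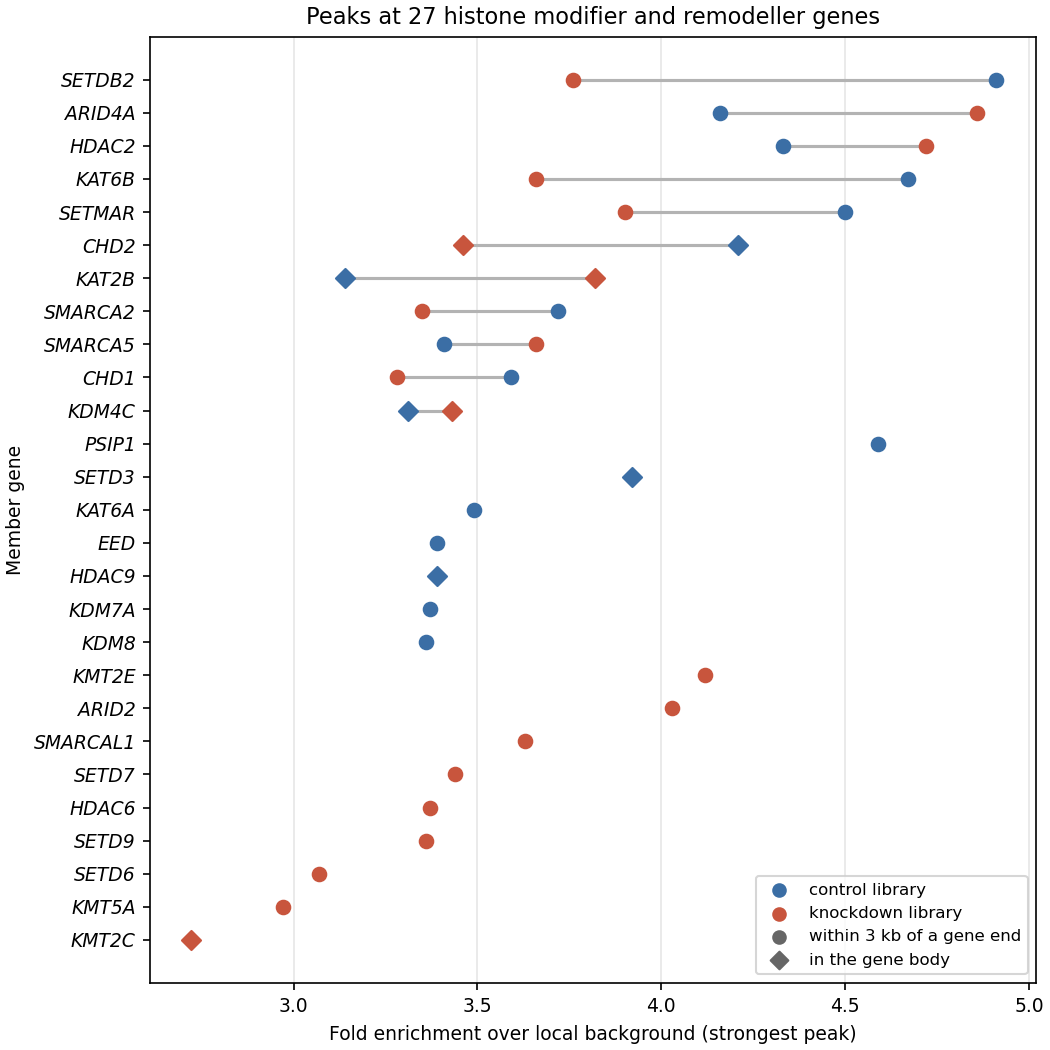
Fold enrichment over local background (horizontal axis) of the strongest peak at each of the 27 loci with a peak, with the control library in blue and the knockdown library in red, circles for peaks within 3 kb of a gene end and diamonds for peaks in the gene body. A grey line joins the 2 values of the 11 loci with a peak in both libraries, of which 5 have the higher value in the knockdown.

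Of the 11 loci with a peak in both libraries, 5 had the higher fold enrichment in the knockdown and 6 in the control. Over all genes with a peak in both, 422 of 991 (42.6%) were higher in the knockdown. The median ratio of knockdown to control fold was 0.913 over the 11 and 0.974 over the 991. The peaks of the 2 libraries overlapped at all 11 loci, beside 94.8% of the 991 genes, and their centres lay 18 bp (SETMAR) to 113 bp (ARID4A) apart.

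Among the erasers of acetylation and their partners, HDAC2 and ARID4A were the 2 members with the strongest knockdown peaks. HDAC2 is a class I deacetylase of the SIN3, NuRD and CoREST complexes, and ARID4A a SIN3 subunit that binds the retinoblastoma protein. At HDAC2 the peak was enriched 4.33-fold in the control library (−log10 q 4.20) and 4.72-fold in the knockdown library (−log10 q 5.4). At ARID4A it had 4.16-fold (−log10 q 3.34) and 4.86-fold (−log10 q 5.95). Both were higher in the knockdown library, and they are the only members with a −log10 q of 5 or more in either library. The HDAC2 peak covered 6 to 400 bp before the gene start in the control (chr6:113971154-113971548) and 33 to 323 bp before it in the knockdown, within the lncRNA gene HDAC2-AS2. The ARID4A control peak (chr14:58297900-58298473) reached over the end of the lncRNA PSMA3-AS1, and the knockdown peak lay within the control peak. HDAC6, mainly a cytoplasmic deacetylase of tubulin, had a peak in the knockdown only (chrX:48801445-48802010, 3.37-fold, −log10 q 1.47). HDAC9, a class IIa deacetylase, had one in the control only, 347 kb inside the gene from its nearer end (3.39-fold, −log10 q 1.34). The weakest control peak of all had a −log10 q of 1.01 and the weakest knockdown peak 1.02, so both calls lay near the authors' threshold. In all, 3 of the 11 deacetylase genes had a peak, beside 12.0% of all genes with one in either library. The other 8, among them HDAC1 and HDAC3, had none.

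The acetyltransferases showed peaks in 3 of 8 genes, beside 12.0% of all genes with one in either library. KAT6B, a MYST-family enzyme, was enriched 4.67-fold in the control library and 3.66-fold in the knockdown library, at a place 1025 to 1286 bp after its RefSeq start in the control. KAT6A, its close relative on chromosome 8, had a peak in the control only, 650 bp outside the gene and within KAT6A-AS1 (3.49-fold, −log10 q 1.56). KAT2B, which encodes the coactivator PCAF, had its peak inside the gene, 16.8 kb from the start, enriched 3.14-fold in the control library and 3.82-fold in the knockdown library. The control call at KAT2B was the weakest of all member peaks by strength, with a −log10 q of 1.11, against 3.36 in the knockdown. KAT5, KAT7, KAT8, KAT2A and KAT14 had none.

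Methyltransferase genes of the SET family were split between the libraries. SETDB2, which methylates lysine 9 of histone H3, had the strongest control peak of all members, 4.91-fold (−log10 q 4.78), and 3.76-fold (−log10 q 2.37) in the knockdown. It ranked 75th of the 2010 control peaks by fold. The peak also covered the end of CAB39L, so it cannot be assigned to SETDB2 alone. SETMAR, a fusion of a SET domain with a mariner transposase, had 4.50-fold and 3.90-fold enrichment over its start, which lies inside SUMF1. SETD3, a histidine methyltransferase of actin, had a peak in the control only (3.92-fold, −log10 q 2.22), 204 to 561 bp before its RefSeq start and over an end of CCNK. The others were called in the knockdown only. At SETD7, which can monomethylate lysine 4 of histone H3, a peak of 921 bp spanned the start (3.44-fold, −log10 q 2.02), the widest of any member. SETD9 (3.36-fold, −log10 q 1.68) and SETD6, which methylates the NF-kB subunit RELA (3.07-fold, −log10 q 1.28), had peaks over their starts, the latter also over an end of NDRG4. KMT5A, which monomethylates lysine 20 of histone H4, had a 2.97-fold peak (−log10 q 1.20), the knockdown call nearest to the threshold. KMT2E, a reader of methylated lysine 4, had the strongest of the group, 4.12-fold (−log10 q 4.16), 984 bp before its start (chr7:105012786-105013221) and within KMT2E-AS1.

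KMT2C, an enhancer lysine 4 methyltransferase, had 2 knockdown peaks, 29.7 and 32.7 kb inside the gene, with the lowest fold enrichments of any member, 2.67 and 2.72. Only 0.496% and 0.620% of the knockdown peaks were lower. Parts of KMT2C have near-identical copies elsewhere in the genome, and whether these peaks lie in such a part was not tested. The related KMT2A, KMT2B and KMT2D, and SETD1A and SETD1B, had no peak. Of the 19 genes with symbols starting SETD or KMT (the readthrough left out), 8 had a peak: 6 were called only after knockdown, 1 only in the control (SETD3) and 1 in both lists (SETDB2). The other 94 members held 3 called only after knockdown (ARID2, HDAC6 and SMARCAL1), 6 only in the control and 10 in both lists. Over all genes 4.32% were called in the knockdown alone, 2.69% in the control alone and 4.95% in both. This grouping was chosen after the values were seen. The 6 are single calls of 1 library in a list that was the longer (2418 against 2010 peaks), and the difference was not tested.

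Lysine 36 of histone H3 is the residue that NSD2 methylates. Of the 7 lysine 36 genes 2 had a peak, beside 12.0% of all genes with one in either library. The 2 were SETMAR, described above, and PSIP1, whose protein LEDGF reads the mark. PSIP1 had a control peak of 4.59-fold (−log10 q 4.17), the strongest among the 7 members called in the control only, and no knockdown peak. NSD1, NSD2, NSD3, SETD2 and ASH1L had none in either library. Accessibility peaks do not measure NSD2 RNA or protein, so the knockdown itself could not be checked here. The nearest peaks to NSD2 were 280 kb away in the control and 1178 kb in the knockdown. ASH1L had a knockdown peak 10.8 kb outside the gene (3.72-fold), and a control peak no nearer than 3795 kb. Over the 86 members without a peak, the median distance to the nearest was 1885 kb in the control and 1225 kb in the knockdown. The 10.8 kb was the shortest of these distances in the knockdown, and the differences were not tested.

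The Polycomb complex PRC2, which methylates lysine 27, had 1 of its 4 genes called, beside 12.0% of all genes in either library. EED, the subunit that binds the finished mark, had a peak of 3.39-fold in the control library alone, 12 to 223 bp before its start, with a −log10 q of 1.39. EZH1, EZH2 and SUZ12 had none.

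Of 20 demethylase genes, 3 had a peak, near the 12.0% of all genes with one in either library. KDM4C, an eraser of lysine 9 methylation, was enriched 3.31-fold in the control library and 3.43-fold in the knockdown library. Its peaks lay 36.8 and 36.7 kb inside the gene as annotated at its widest, but only 76 bp before the RefSeq start used for its promoter. KDM7A, an eraser of lysine 9 and lysine 27 methylation, had a control peak over its start and an end of KDM7A-DT (3.37-fold, −log10 q 1.43). KDM8 had one just after its start (3.36-fold, −log10 q 1.60). None of the other 17, from KDM1A (LSD1) to the lysine 27 erasers KDM6A and KDM6B, had a peak.

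Of the remodellers, 4 of 18 genes in the SWI/SNF and ISWI class and 2 of 10 CHD genes had a peak. Over all genes, 12.0% had one in either library. SMARCA2, SMARCA5, CHD1 and CHD2, which encode ATPases, had peaks in both libraries, beside 4.95% of all genes. SMARCA2, the BRM motor of SWI/SNF, was enriched 3.72-fold in the control library and 3.35-fold in the knockdown library. SMARCA5, the SNF2H motor of ISWI, had 3.41-fold and 3.66-fold, over its start and an end of SMARCA5-AS1. CHD1, a reader of methylated lysine 4 that is often deleted in prostate cancer, had 3.59-fold over 857 bp in the control and 3.28-fold over 435 bp in the knockdown, shared with CHD1-DT and LOC100289230. CHD2 had 4.21-fold and 3.46-fold, 3.91 kb inside the gene in the control and over the microRNA gene MIR3175. A peak in the knockdown only was found at SMARCAL1, an annealing helicase of stalled replication forks (3.63-fold, −log10 q 2.13), and 1856 bp from the nearer end of ARID2, a subunit of the PBAF form of SWI/SNF (4.03-fold, −log10 q 3.57). The ARID2 peak lay within LINC00938. SMARCA4, the other SWI/SNF motor, and the core subunits SMARCB1, SMARCC1 and SMARCC2 had none. Also without a peak were the other 8 CHD genes. The bromodomain genes BRD1, BRD2, BRD3, BRD8, BRD10 and BRDT, whose proteins bind acetylated histones, had none in either library. The same held for the ARID genes other than ARID2 and ARID4A.

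**Figure D2:**
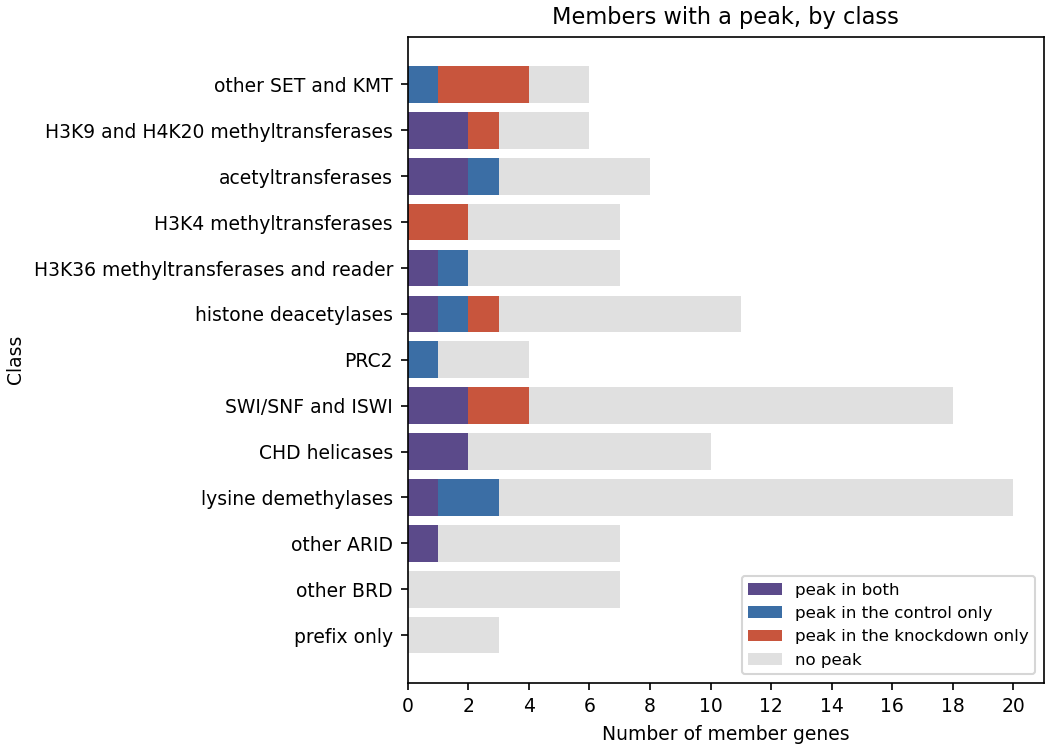
Number of member genes (horizontal axis) with a peak in both libraries, in 1 of them or in neither, for the 12 classes and the 3 symbols that share only a prefix. Counts range from 4 of 6 genes of the remaining SET and KMT symbols to none of 7 of the other bromodomain genes. Over all protein-coding genes 12.0% had a peak in either library. The readthrough SETDB2-PHF11 is counted with the lysine 9 and H4 lysine 20 class.

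Peaks called in 1 library had lower median strength than those called in both. In the control the median −log10 q was 3.34 at the 11 loci with a peak in both and 1.56 at the 7 called there only. In the knockdown it was 2.80 at the 11 and 1.69 at the 9 called there only. Of the 16 single calls the strongest were PSIP1 in the control (4.17), and KMT2E (4.16) and ARID2 (3.57) in the knockdown. Taking each locus by its strongest peak, the median fold enrichment was 3.66 at the 18 control loci (3.63 over the 1530 genes with a control peak) and 3.54 at the 20 knockdown loci (3.50 over 1856 genes).

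**Figure D3:**
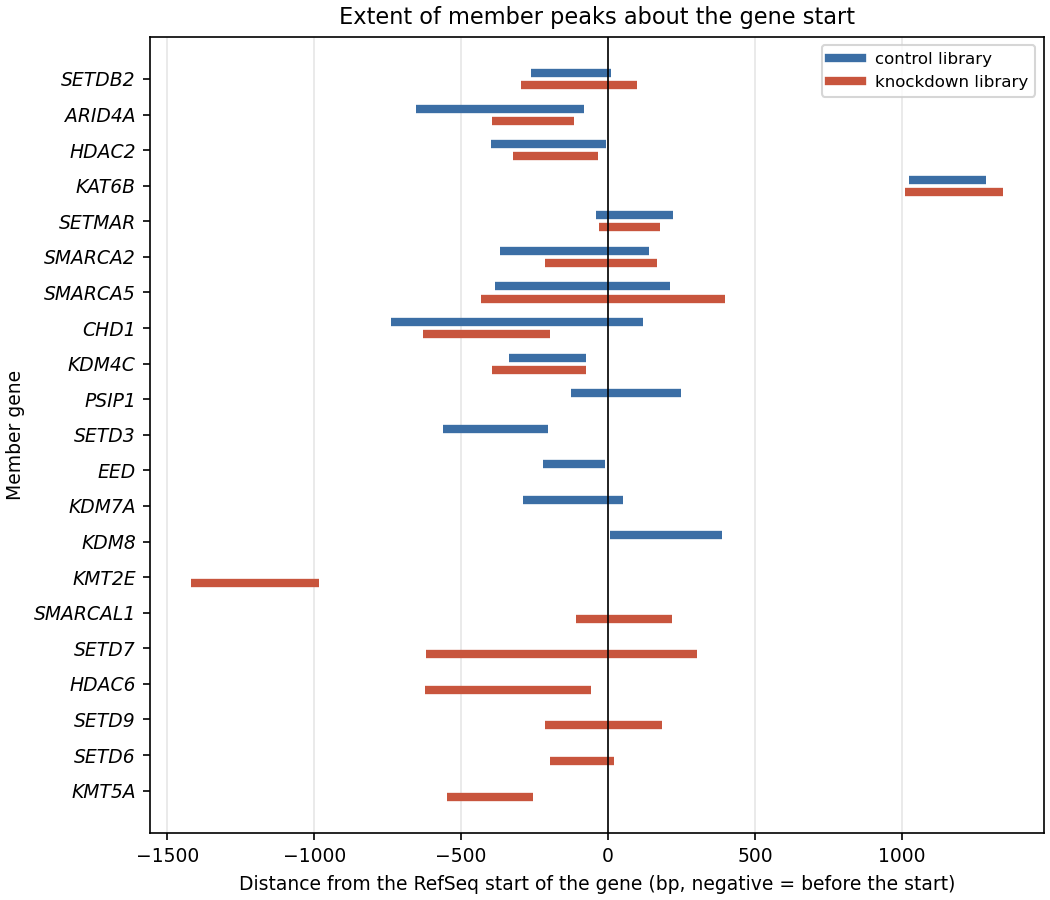
Extent of the member peaks that lie within 3 kb of the RefSeq start of their gene (horizontal axis in bp, negative before the start), with the control library in blue and the knockdown library in red. Most bars lie across or just before the start, and those of KAT6B and KMT2E lie about 1 kb after and before it.

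Member peaks at gene ends lay within 3 kb of the start of the gene. Where RefSeq gives the start, this held for 12 of 12 control and 15 of 15 knockdown loci, beside 93.0% and 92.2% of all genes with a peak at an end. The peak covered the start itself at 7 of the 12 and 8 of the 15, a share that was not computed over all genes. The centres ranged from 368 bp before to 1156 bp after the start in the control (median 116 bp before) and from 1202 bp before to 1177 bp after it in the knockdown (median 98 bp before). Over all member peaks, those in gene bodies included, widths ran from 212 to 857 bp in the control and from 203 to 921 bp in the knockdown. KAT6A and ARID2 were not placed relative to a start. Not all peaks in gene bodies differed in place from those at ends. The peaks of KDM4C and SETD3 lay 76 and 204 bp before a start inside the annotated gene, also close to a start. Those of HDAC9, KAT2B, CHD2 and KMT2C lay over 3 kb from the start used here.

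Some of these peaks lay near the end of another gene. At 13 of the 27 loci another gene of any kind had an end within 3 kb of the peak. It was a lncRNA at 9 loci (ARID2, ARID4A, CHD1, HDAC2, KAT6A, KDM7A, KMT2E, SMARCA5 and SMARCAL1), a protein-coding gene at 3 (SETD3, SETD6 and SETDB2) and a microRNA at CHD2. The other 14 loci, among them EED, KAT6B, PSIP1, SETD7 and SMARCA2, had no other gene end that close. The same share over all genes with a peak was not computed, so these counts do not set the members apart.

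Members with a peak had fewer genes around them in the median than members without. They had a median of 5.5 other protein-coding genes with their middle within 500 kb, against 17 for members without a peak, and over all genes the medians were 6 with a peak and 13 without. None of the 18 members on chromosomes 17, 19 and 22 had a peak, among them SUZ12, EZH1, SMARCA4, KAT2A and KDM6B, where 1.07% of all genes had one. On chromosomes 3, 5 and 8, 5 of 16 members had one (KAT2B, KAT6A, CHD1, SETD9 and SETMAR, 31.2%), beside 24.6% of all genes. On the other chromosomes it was 23 of 80 (28.8%) beside 11.9%. These included chromosome 1, where 0 of 11 members had a peak beside 14% of all genes, and chromosome 21, where 0.837% of all genes had one. Chromosomes 3, 5 and 8 had the highest shares of all genes in these same lists, so the groups were not independent of the peaks. Of the 23 members with 0 to 4 neighbours, 13 had a peak (56.5%), beside 24.6% of all genes of this density. With 5 to 8 neighbours it was 36.8% beside 19.4%, and with 9 to 14 it was 26.1% beside 11.9%. In the 2 densest classes the members were near the share of all genes: with 15 to 26 neighbours 1 of 25 had a peak (KMT5A, 4% beside 3.72%), and with 27 to 75 neighbours 1 of 24 (HDAC6, 4.17% beside 2.7%).

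**Figure D4:**
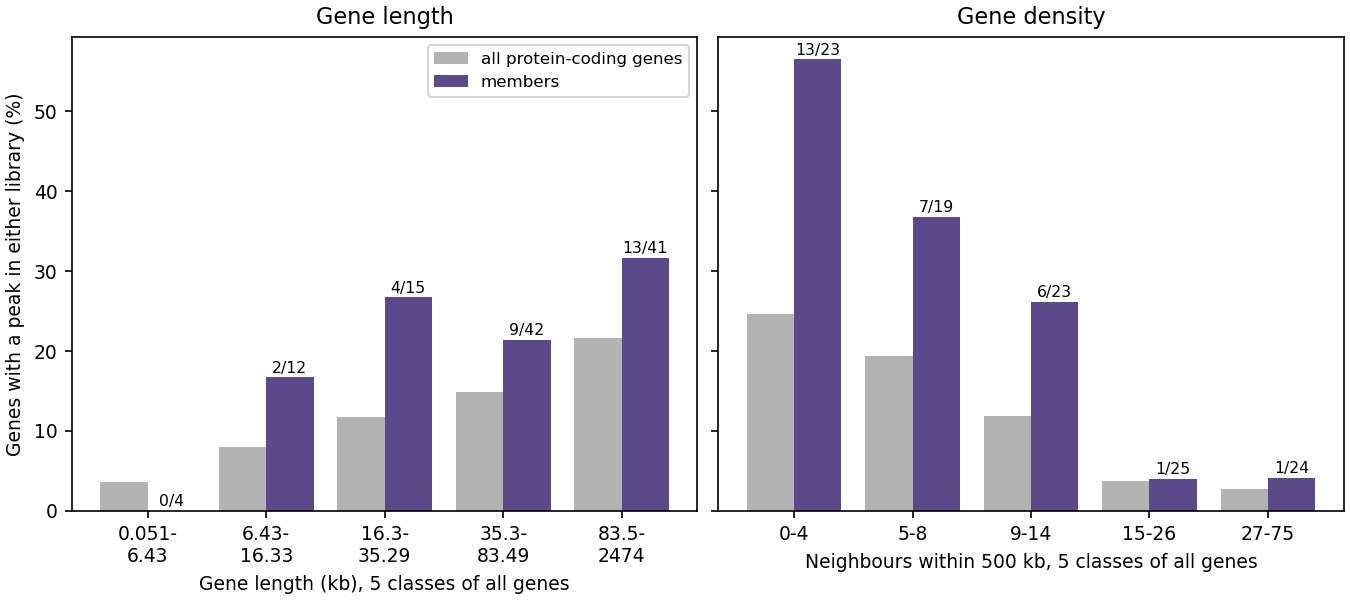
Share of genes with a peak in either library (vertical axis, %) in 5 classes of gene length (left, kb) and of gene density (right, number of protein-coding neighbours within 500 kb), for all protein-coding genes in grey and the members in purple, with the number of members with a peak over the number of members above each bar. The member bars stand above the grey ones in all classes but the shortest genes, where 0 of 4 members had a peak.

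The members were also long genes, and peaks inside a gene were counted as well as those at its ends. Members with a peak had a median length of 75.2 kb and those without 52.0 kb, against 50.7 and 21.6 kb over all genes. Only 4 members fell in the class of the shortest genes, and 41 in that of the longest, over 83.5 kb. There 13 of 41 members had a peak (31.7%), beside 21.6% of all genes. In the class from 35.3 to 83.5 kb it was 21.4% beside 14.9%. In the class from 16.3 to 35.3 kb it was 26.7% beside 11.7%. With only peaks within 3 kb of an end counted, 14 members (12.3%) had one in the control, beside 6.28% of all genes. In the knockdown it was 17 (14.9%), beside 7.52%. The part of length and density in the members' share was not tested beyond these values.

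**Figure D5:**
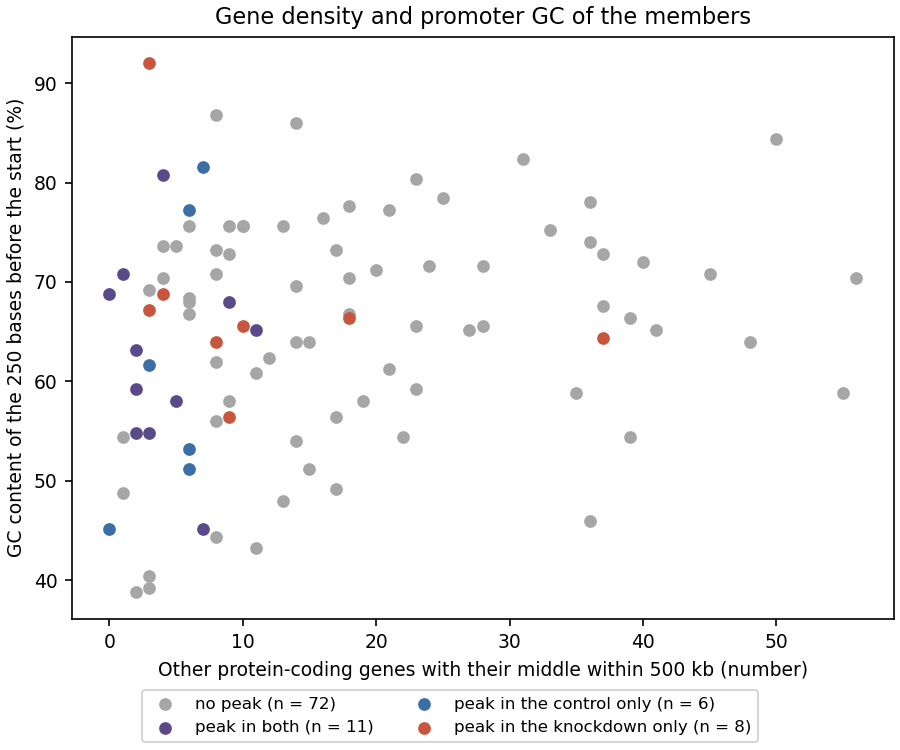
GC content of the 250 bases before the RefSeq start (vertical axis, %) against the number of other protein-coding genes with their middle within 500 kb (horizontal axis) for the members in the RefSeq promoter table, coloured by the library in which a peak was called. Coloured points lie mostly to the left, at few neighbours, and spread from 45.2 to 92.0% GC.

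GC content of the promoters was also compared. Its median was 64.8% for the 26 members with a peak that are in the promoter table and 67.8% for 72 without, and 63.2% and 62.0% over all genes with and without a peak. Members with a peak ranged from 45.2% (HDAC9 and ARID4A) to 92.0% (KMT2C). With all promoters in 5 classes of about equal size, 2 of 11 members had a peak in the class with the least GC (up to 49.6%), 5 of 13 in the middle class (59.2 to 64.8%) and 4 of 28 in the class with the most (72.0% and more), beside 8.18, 15.2 and 10.9% of all genes.

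Chromatin genes outside these families gave shares of their own, and their difference from the members was not tested. A list of 156 other writers, erasers, readers and complex subunits, all matched by symbol, had 13 genes in the control list (8.33%, interval 4.51 to 13.8%) and 17 in the knockdown list (10.9%, interval 6.48 to 16.9%), near the shares of all genes above. The strongest was at ENY2, a subunit of the SAGA deubiquitinase module, enriched 5.39-fold in the control library and 5.07-fold in the knockdown library. CBX5, which encodes the heterochromatin protein HP1 alpha, had 3.95-fold and 3.97-fold, and MSL2, a ubiquitin ligase of the MSL complex, 3.82-fold and 3.34-fold. ING2, a reader in SIN3 complexes (3.8-fold), and ACTL6A, a SWI/SNF subunit (3.64-fold), were called in the knockdown only. SS18, another SWI/SNF subunit (3.71-fold), ING1, also of SIN3 complexes (3.70-fold), and DNMT3A, a DNA methyltransferase (3.59-fold), were called in the control only. Of 11 luminal prostate and androgen response genes, which mark the labelled line, ACP3 and STEAP2 had a peak in both libraries, while KLK3, which encodes prostate-specific antigen, had none.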

How the data were processed

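ATAC-seq broad peaks were deposited as 1 list per library (2010 control and 2418 knockdown peaks), so the authors called them per library. The submitters' processing notes name MACS2, ChIPseeker 1.22.1, Picard 1.101, SAMtools 1.9, CASAVA 1.8.2 and Bowtie2 2.2.9, and the build GRCh38. Their roles, the cut-site shift and the duplicate filter, which can change where and how many peaks are called, are not given. The deposited values are a fold enrichment (a ratio over local background), a −log10 p-value and −log10 q, and a score, which repeats the −log10 q. They are the authors' and were not scaled between libraries. Read depth is unknown.

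Peaks were assigned to genes of the RefSeq table (GRCh38.p14), 98 of the 114 members having an entry in its promoter table, from which strand and start were taken. Members, lists, motifs and naming rule (all members with a peak, and the 8 strongest other chromatin genes) were chosen with earlier results of these data known. BRD3OS, CHD9NB and NSDHL were kept in all counts. As alternatives, peaks were limited to a −log10 q of 5 or more or to equal list lengths, or counted with 1 kb to an end, ends only, starts only, other overlaps or other member sets. Peak assignment was tested on simulated data. The tools were matplotlib 3.10.9, scipy 1.17.1, pandas 2.3.3, numpy 2.4.6 and Python 3.11.15. Results for some genes are not reported here.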

Additional observations from a re-analysis of the deposited data

How the results depend on the processing

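The filter on peak strength changed the results most, since few peaks are that strong, at the members or over all genes. By the strongest peak of each gene, 7.45% of all genes with a control peak reached a −log10 q of 5. For the knockdown it was 7.87%. Of the member loci, 0 of 18 and 2 of 20 (10%) did. At a −log10 q of at least 5, 0 members kept a control peak and 2 a knockdown peak (ARID4A and HDAC2), beside 0.579% and 0.739% of all genes. This left 0 members with a peak in both libraries, 0 in the control only, 2 in the knockdown only, 0 shared at the same place, and a median fold enrichment of 4.79 for the 2. Of the other chromatin genes, 1 kept a peak in each library. The counts moved by less than 1.5 times, and the medians stayed within their interval, with equal numbers of peaks (19 members in each library), with 1 kb to a gene end (19 and 20) and with ends only (14 and 17). For starts only (15 and 17 of 98) and without NSDHL (19 and 21), the counts of members by library moved by less than 1.5 times, and medians, shared places and other chromatin genes were not computed. Asking that 50% of each peak be overlapped left 11 of the 12 members shared. Leaving out SETDB2-PHF11 and the prefix-only symbols, an alternative chosen after seeing the data, gave 18 and 20 members. The peak nearest to a gene end in place of the strongest changed the value at KMT2C alone (2.67 for 2.72). No paired analysis was possible because each group has 1 library. Precision is limited by the single library per group and by calls near the authors' threshold. Of the member peaks, 8 of 18 control and 8 of 21 knockdown ones had a −log10 q below 2. Such values were common, as the medians over all peaks of the 2 lists were 2.08 and 2.15.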
